A study of Mus musculus with 24 samples.

Results

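The genes described here serve protein folding, protein import and the unfolded protein response in the endoplasmic reticulum (ER), and were followed through eosinophil maturation in mouse bone marrow. They are 44 genes chosen by name for their known roles: 6 stress sensors and transcription factors, 9 luminal chaperones and cofactors, 6 lectin chaperones and disulfide isomerases, 6 genes of ER-associated degradation, 7 of the translocon, 5 of the signal peptidase and 5 of the oligosaccharyltransferase. All 44 had a row among the 24982 gene symbols of the deposited tables, and all 44 passed the filter on low counts, which left 12743 genes for testing.

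Proteins destined for granules, the cell surface or secretion enter the ER through the Sec61 channel, lose their signal peptide to the signal peptidase, receive glycans from the oligosaccharyltransferase and are folded by chaperones and disulfide isomerases, while misfolded chains are sent back to the cytosol for degradation. When folding lags, the sensors IRE1 (gene Ern1), PERK (Eif2ak3) and ATF6 start the unfolded protein response. IRE1 splices Xbp1 mRNA into its active form, PERK favours translation of ATF4, which induces Ddit3, and ATF6 is released as a transcription factor. Developing eosinophils load large granules with cationic proteins made at the ER, and mice lacking Xbp1 in blood cells are known to lack mature eosinophils.

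The libraries were made from wild type C57BL6 mice, either injected with recombinant murine interleukin 33 (IL-33) at 400 ng into the peritoneum daily for 7 days, or kept in steady state. IL-33 is a cytokine released by damaged tissue that causes eosinophilia. From each condition, stages I, II, III and IV of eosinophil maturation were sorted by surface markers out of marrow pooled from 3 mice per sample, after magnetic removal of cells bearing Ly6G, CD90.2, NK1.1 or CD45R, so each value is an average over pooled mice. There were 3 libraries for each of the 8 groups, 24 in all, called biological triplicates in the series' design text. Age and sex of the mice were not used here, and gene counts do not separate spliced from unspliced Xbp1 mRNA.

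Gene counts per library lay between 8335138 and 14909453. Levels below are counts-per-million (CPM) of the gene counts after TMM normalisation, which sets libraries on one scale by the bulk of their genes. A change is called where edgeR's quasi-likelihood test gave an adjusted p below 0.05 over all genes tested, and fold changes are on the log2 scale. The third library of every steady state stage stood apart, with 3331 to 5018 CPM of the early stress gene Jun, against 875 to 2142 CPM in the other 20 libraries. Reads assigned to no gene made up 12.5% ± 2.5 under IL-33 and 21.6% ± 3.69 in steady state (SD, n = 12 each). Summed eosinophil markers (9 genes, among them Epx, Prg2 and Siglecf) averaged 33890, 34246, 32840 and 23945 CPM in stages I to IV under IL-33, and 33813, 34144, 26408 and 6325 CPM in steady state. Neutrophil markers (11 genes) summed to between 1249 and 10414 CPM per library under IL-33 and between 2305 and 26441 CPM in steady state, although Ly6G-bearing cells had been removed. In bulk RNA, fewer cells of a type and less RNA per cell cannot be told apart.

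Factors of the unfolded protein response bind short promoter elements, and these are shown because Calr, Hspa5, Creld2 and Herpud1, whose levels are given further on, carry one. The ER stress response element (ERSE) is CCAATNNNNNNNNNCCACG and so contains a CCAAT box. It was found on either strand within 250 bases upstream of the RefSeq start in 8 of the 36 genes of the list with a RefSeq promoter (22.2%), against 35 of 27025 genes in the promoter table (0.13%). The 35 include these 8, and 27 lie outside the list. Since the list was chosen by name for such roles, the shares are a description and no test. The related ERSE-II, which is ATTGG and CCACG with any base between, was found in Herpud1 alone among the 36, and in 10 genes of the table (0.037%). A UPRE (TGACGTGG or TGACGTGA) was found in Hspa5 alone, against 274 genes of the table (1.01%), and the ATF4 element TGATGNAAT in 0 of the 36, against 246 genes (0.91%). A CCAAT box of any context occurred in 29 of the 36 (80.6%) and in 10133 genes of the table (37.5%). The matches are letters in a window and not measured binding sites. Each line gives the motif in capitals, read 5′ to 3′ with the motif in its forward sense, from RefSeq on GRCm38.p6.
Hspa5, chr2:34772010-34772058, plus strand: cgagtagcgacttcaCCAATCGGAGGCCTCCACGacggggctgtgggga
Calr, chr8:84847060-84847108, plus strand: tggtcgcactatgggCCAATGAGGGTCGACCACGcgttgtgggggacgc
Pdia6, chr12:17266476-17266524, plus strand: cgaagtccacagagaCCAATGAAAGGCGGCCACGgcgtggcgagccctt
Canx, chr11:50325785-50325833, minus strand: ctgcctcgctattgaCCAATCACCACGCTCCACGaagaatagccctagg
Creld2, chr15:88819505-88819553, minus strand: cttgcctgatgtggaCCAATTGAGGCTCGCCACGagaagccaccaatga
Dnajc3, chr14:118937812-118937860, plus strand: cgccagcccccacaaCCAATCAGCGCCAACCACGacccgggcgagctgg
Herpud1 (ERSE-II), chr8:94386362-94386402, plus strand: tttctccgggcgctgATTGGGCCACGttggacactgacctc
The motif ended 47 bases upstream of the start in Hspa5, 144 in Calr, 80 in Pdia6, 127 in Canx, 108 in Creld2, 87 in Dnajc3 and 42 in Herpud1, and in Calr and Creld2 it lay on the strand opposite to the gene. These distances are from the RefSeq start, and the Hspa5 motif lies inside the interval that GENCODE gives for the gene. Hsp90b1 carried 2 such elements and Syvn1 carried 1.

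The summed level of the 44 genes was highest in stage I and lowest in stage IV in both conditions, and the steepest step lay at a different stage in each. Under IL-33 the sum averaged 37006 ± 2598 CPM in stage I, 34149 ± 4141 in stage II, 27387 ± 4393 in stage III and 11350 ± 1254 in stage IV (SD, n = 3 each). In steady state it averaged 26507 ± 1617, 21037 ± 3927, 11345 ± 4452 and 8730 ± 2319 CPM in the same order. The largest step was thus the one into stage IV under IL-33, where the sum was 2.41-fold lower than in stage III, and the one into stage III in steady state, where it was 1.85-fold lower than in stage II. Set side by side at one stage, the IL-33 sum was 1.40, 1.62, 2.41 and 1.30 times the steady state sum in stages I, II, III and IV. In stage III the IL-33 libraries held 24124 to 32383 CPM and the steady state libraries 7435 to 16191 CPM, with no overlap.

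**Figure D1:**
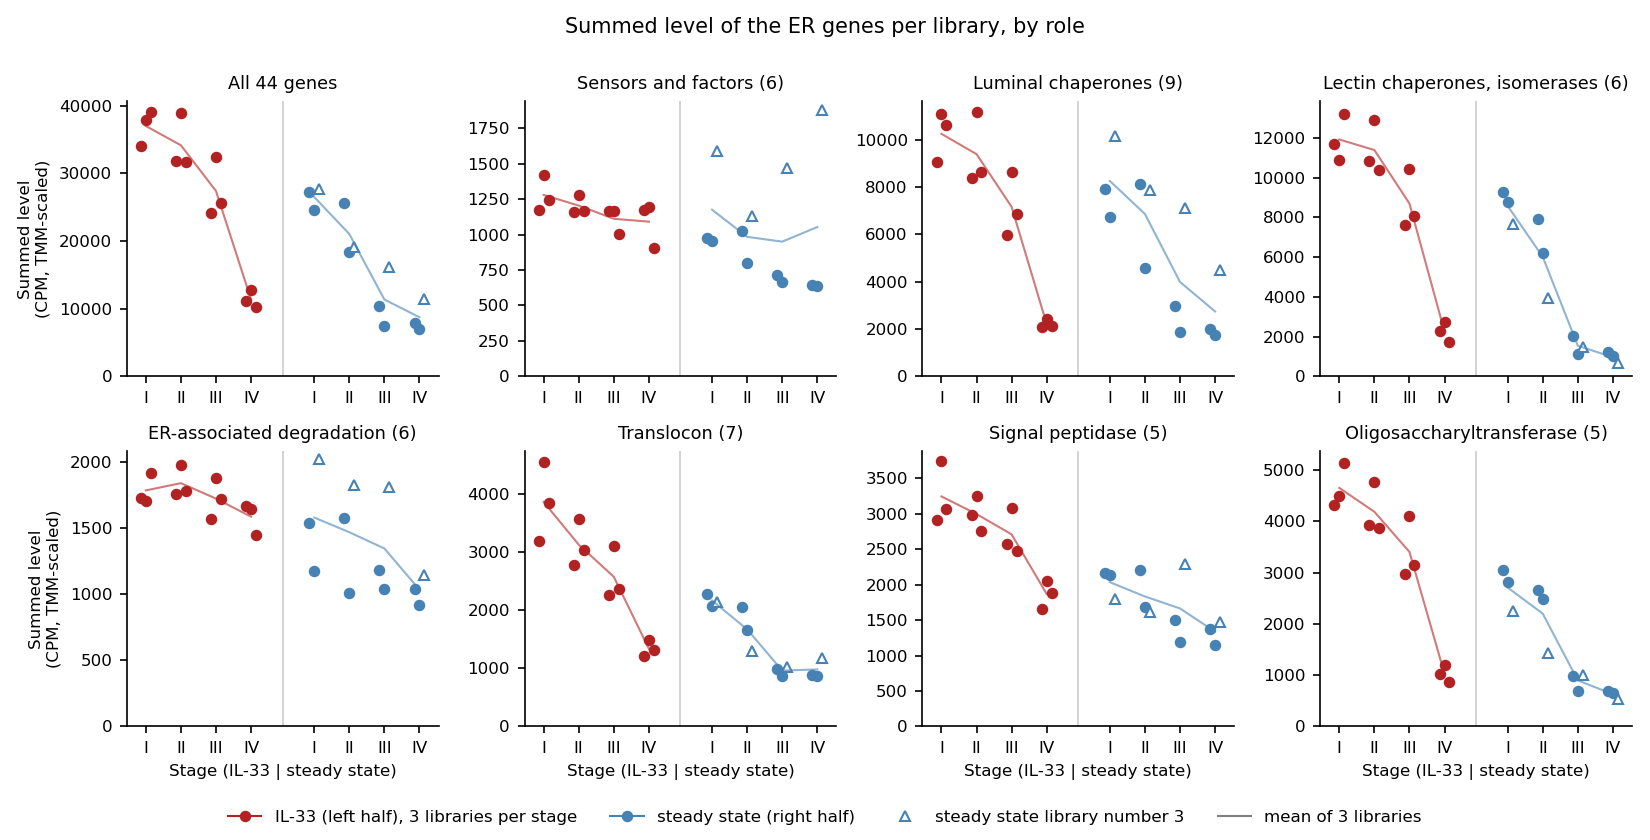
Summed level of all 44 ER genes and of each role group in every library (TMM-scaled CPM, vertical axis) across stages I to IV, IL-33 at the left of each panel and steady state at the right, with lines through the means of 3 libraries. Most panels drop at stage IV under IL-33 and at stage III in steady state, the sensors and the ER-associated degradation genes by the smallest factors. The third steady state libraries (open triangles) lie highest of their group for sensors in each stage. For luminal chaperones they lie highest in stages I, III and IV, where Hspa5 is the largest part of their sum.

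Per gene, few steps were called before the steep one. From stage I to II and from II to III under IL-33, 0 of the 44 genes passed edgeR's test, against 0.0942% (0.0785% higher and 0.0157% lower) and 0.0863% of all genes. At an unadjusted p below 0.05 there were 6 and 0 of the 44. DESeq2 called 0 in both steps, and limma-voom with sample weights called 6 and 4. From stage III to IV under IL-33, 25 genes fell and 1 rose, while 16% of all genes fell and 13.1% rose, and the median log2 fold change was −1.14 over the 44 and 0.01 over all genes. In steady state 0 of the 44 passed from stage I to II, against 4.87% of all genes (3.58% higher and 1.29% lower), with 3 at an unadjusted p below 0.05 and 0 by DESeq2 or limma-voom. A fit with the replicate number as a block called 1. From stage II to III in steady state 22 fell and 1 rose, against 17.4% of all genes falling and 17.2% rising, with a median of −0.77 over the 44 and 0 over all genes. From stage III to IV in steady state 6 fell and 0 rose, against 5.67% of all genes falling, 3.55% rising and 9.23% in either direction. That last count was 10 with the replicate block. It was 1 without the third steady state libraries, where 6.47% of all genes were called. The other shares of all genes in this paragraph are of edgeR's adjusted calls in the main fit. They are no reference for counts at an unadjusted p or by another method.

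The 2 steep steps share no library, and their falls can be compared gene by gene. Of the 22 genes that fell into stage III in steady state and the 25 that fell into stage IV under IL-33, 20 were the same, which is 90.9% of the steady state falls and 80% of the IL-33 falls. Over all genes tested 1372 falls were shared, or 61.9% of 2217 in steady state and 67.2% of 2041 under IL-33. Xbp1 and Manf fell in the steady state step and were not called in the IL-33 step. Hspa5, Dnajb11, Sel1l, Spcs2 and Stt3a fell in the IL-33 step and were not called in the steady state step, and 4 of these 5 (all but Sel1l) were called lower in steady state too when the third steady state libraries were left out.

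**Figure D2:**
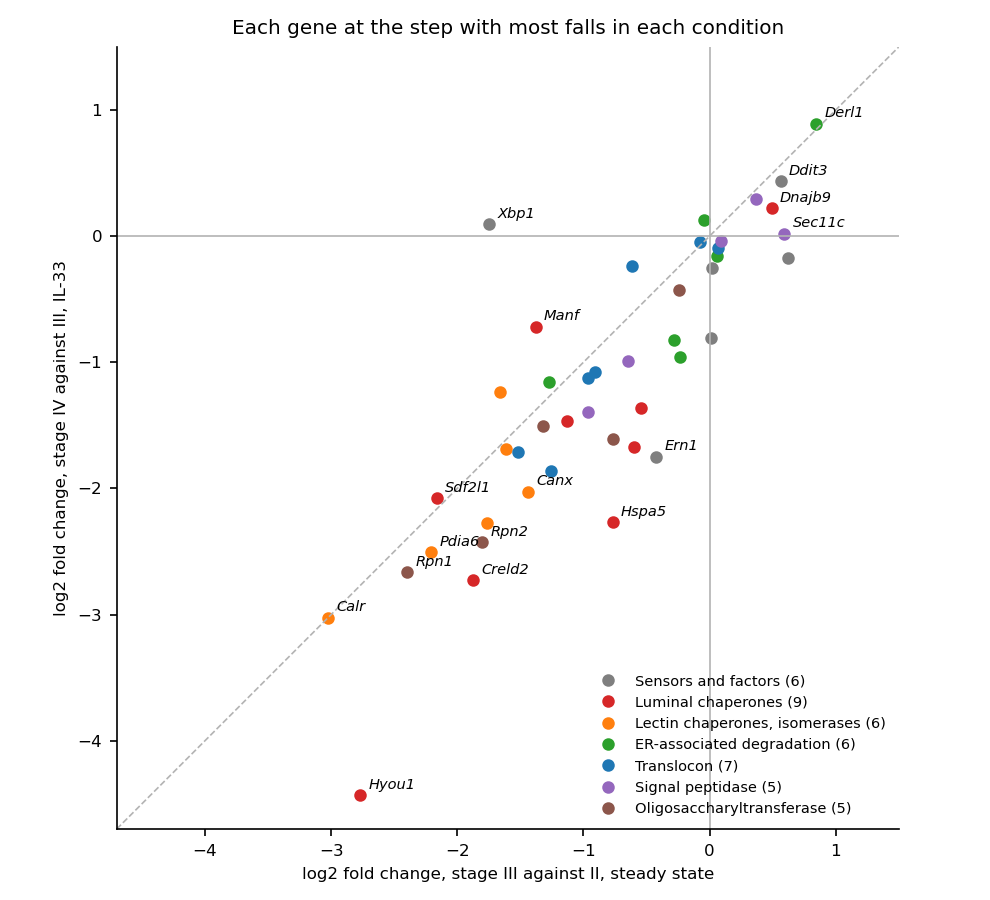
log2 fold change of each of the 44 genes from stage III to IV under IL-33 (vertical axis) and from stage II to III in steady state (horizontal axis), coloured by role, with equality on the dashed line. Calr lies at −3.02 on both axes, Derl1 lies above 0 on both, and Xbp1 lies far from the line with 0.09 under IL-33 and −1.75 in steady state.

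Summed markers of other cells also differed across these steps. Neutrophil markers averaged 7669 CPM in stage IV against 3370 CPM in stage III under IL-33, while steady state had 22134 CPM in stage III against 21040 CPM in stage II. Primary granule genes of early myeloid precursors (5 genes, among them Mpo and Elane) averaged 374 CPM in stage IV against 283 CPM in stage III under IL-33, but 318 CPM in stage III and 5569 CPM (2466 to 9767) in stage II in steady state, where all 5 fell. Basophil and mast cell markers (10 genes, 2 of them at 0 in every library) averaged 2291 CPM in stage IV against 3395 CPM in stage III under IL-33, while steady state had 914 CPM in stage III against 2934 CPM in stage II. Monocyte and macrophage markers (11 genes) averaged 3077 CPM (2920 to 3190) in stage IV against 1267 CPM (1181 to 1422) in stage III under IL-33, while steady state had 2199 CPM in stage III against 1641 CPM in stage II. Plasma and B cell markers, of which 8 of 11 had a row, summed to at most 368 CPM in any library, with Mzb1 at 0 to 7.64 CPM. The part of these cells in the falls was not tested.

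Comparing conditions at a fixed stage, more of the 44 genes were called higher than lower under IL-33 in stages II, III and IV, most of them in stage III. In stage I, 1 of the 44 rose, which is near the share over all genes, 2.71% rising and 1.36% falling. At an unadjusted p below 0.05 there were 26 of the 44. The shares given here are of adjusted calls and are no reference for the 26. In stage II, 15 rose and 0 fell, against 8.03% of all genes, 4.06% rising and 3.97% falling. In stage III, 28 rose and 1 fell, against 18.5% and 14.9% of all genes, and the median log2 fold change was 1.34 over the 44 and 0 over all genes. In stage IV, 11 rose and 1 fell, against 7.48% and 4.68% of all genes. Averaged over the stages, 34 rose and 1 fell, against 21.4% and 16.7% of all genes, 38.1% in all. Every average over stages given here took the 12 libraries of a condition as independent. Libraries with the same number resembled each other across neighbouring stages, and the labels do not say whether they share mice. If they do, these averages rest on fewer separate pools, and their p-values are too small. Neutrophil markers moved the other way, with all 11 lower under IL-33 in stage III. Their sums averaged 3528, 2215, 3370 and 7669 CPM in stages I to IV under IL-33. In steady state they averaged 6708, 21040, 22134 and 19185 CPM. Primary granule genes also averaged lower under IL-33 in each stage, with 1148 against 5569 CPM in stage II. Basophil and mast cell markers averaged 3395 CPM under IL-33 against 914 CPM of steady state in stage III, and 2291 against 487 CPM in stage IV. The part of these cells in the differences was not tested.

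Leaving out 1 library moved the counts in stages I and II. In stage I the count was 11 without the first IL-33 library, and 0 without the second IL-33, the second steady state or the third steady state library. It was 10 with DESeq2 and 32, of which 31 were rises, with limma-voom. The shares of all genes given above are edgeR's and are no reference for these counts. In stage II it was 4 without the third steady state library or without the second IL-33 library. It was 7 (6 rises and 1 fall) with the third library of every steady state stage left out, where 8.1% of all genes were called. It was 7 to 8 without the second steady state, the first IL-33 or the third IL-33 library of that stage. The counts in stage III lay between 27 and 30 with any 1 library left out.

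**Figure D3:**
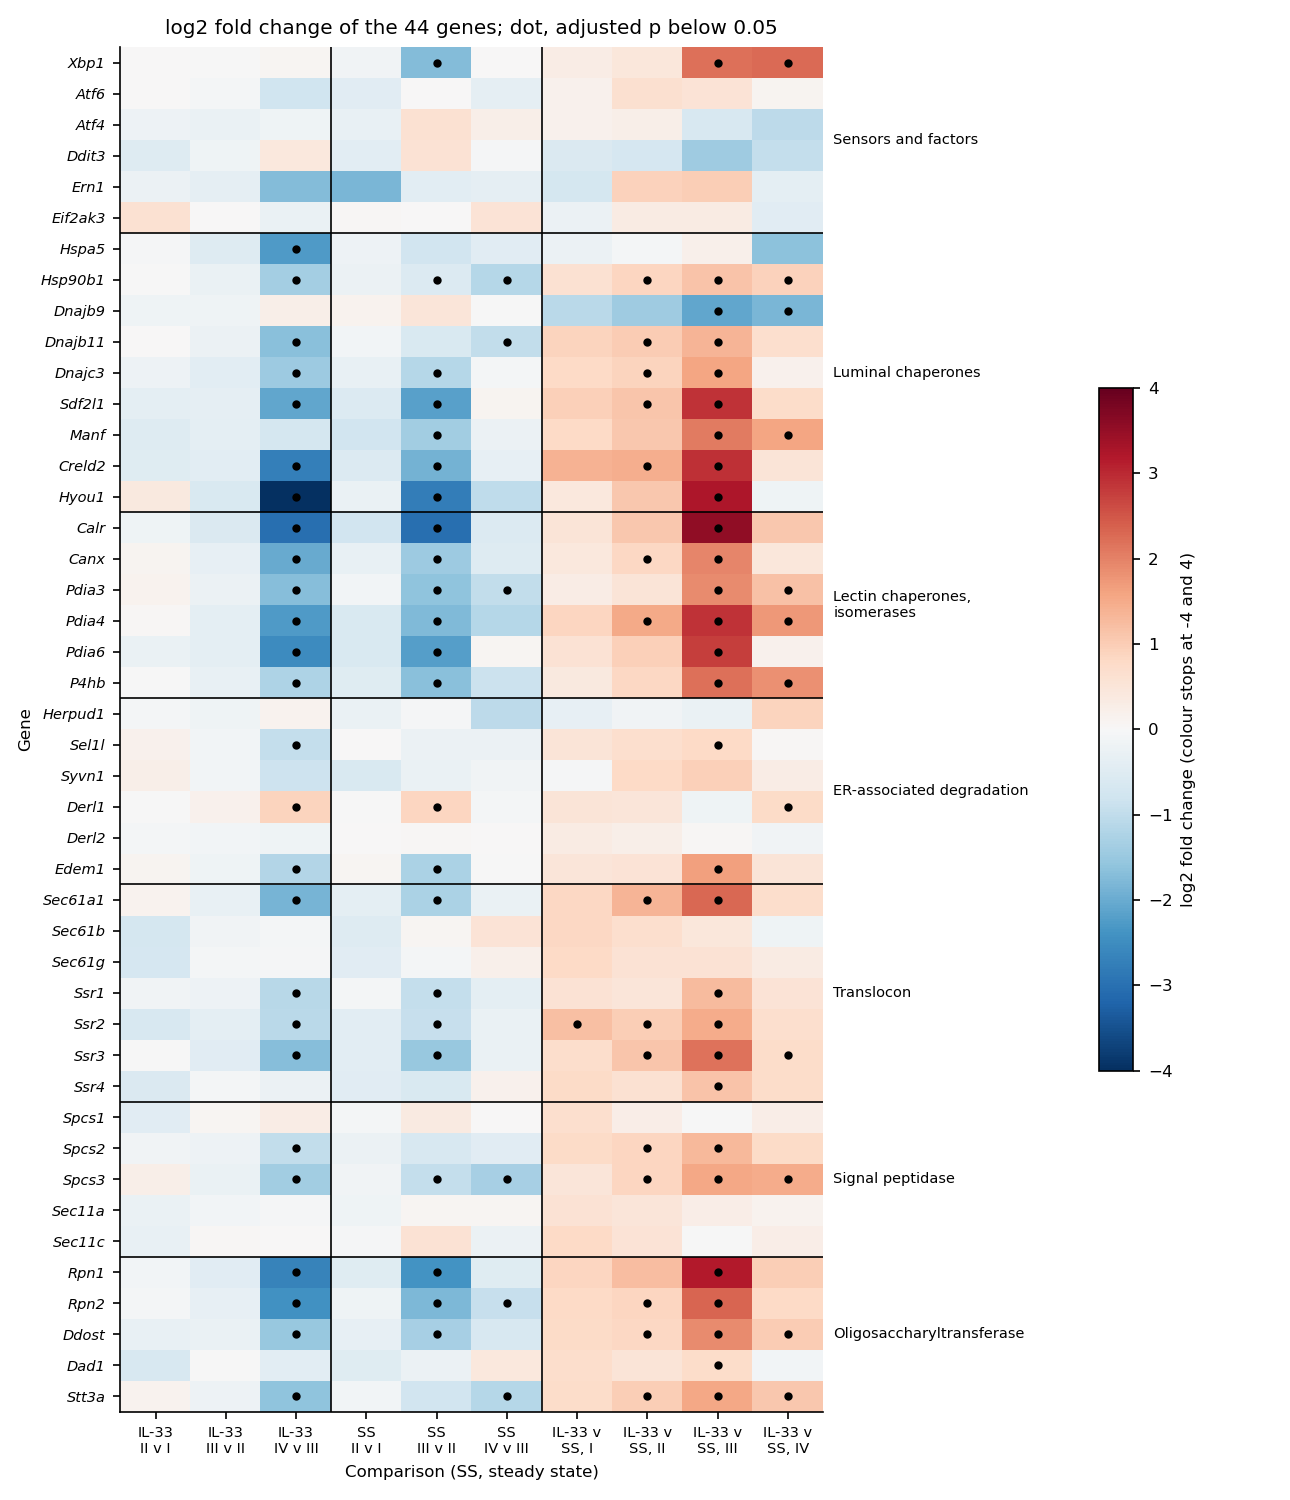
Heat map of log2 fold changes of the 44 genes (rows, grouped by role) in the 6 steps between stages and the 4 comparisons of IL-33 with steady state (columns), with a dot where the adjusted p was below 0.05. Falls (blue) gather in the columns for stage IV against III under IL-33 and stage III against II in steady state, and rises (red) in the column for IL-33 against steady state at stage III.

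Among the sensors and transcription factors only Xbp1 was called in any step between neighbouring stages or between conditions. Xbp1 (chr11:5520659-5525893, GRCm38) encodes the factor that drives genes of ER folding and secretion. Under IL-33 its level was 577, 580 and 537 CPM in stage I, 577, 636 and 505 in stage II, 573, 646 and 482 in stage III, and 703, 722 and 390 in stage IV. In steady state it was 426, 407 and 533 CPM in stage I, 482, 376 and 388 in stage II, 140, 96.6 and 134 in stage III, and 148, 101 and 127 in stage IV. The IL-33 libraries thus kept to one range through all stages, while steady state libraries of stages III and IV lay below all those of stages I and II. The steady state step into stage III was −1.75 on the log2 scale (SE 0.23, adjusted p = 6.3e-06), and the IL-33 step into stage IV was 0.09 (SE 0.22, adjusted p = 0.8). Xbp1 was higher under IL-33 than in steady state by a log2 fold change of 2.20 in stage III (SE 0.24, adjusted p = 5.5e-07) and 2.27 in stage IV (SE 0.24, adjusted p = 7.6e-07), with no overlap in either. In stage I the difference was 0.31 (adjusted p = 0.48). The difference of the step from stage II to III between conditions was itself called, at 1.73 (SE 0.32, adjusted p = 0.002).

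The other factors of the group were not called in those comparisons. Atf4, translated when PERK is active, had 425, 634 and 488 CPM in stage I, 421, 469 and 463 in stage II, 433, 362 and 335 in stage III, and 339, 320 and 340 in stage IV under IL-33. Its steady state levels were 405, 379 and 599 CPM, then 401, 295 and 442.8, then 448.9, 429 and 875, then 355, 382 and 1315 CPM from stage I to IV, so the third library was highest in each stage. Ddit3 (CHOP, induced by ATF4) had 61.3, 137 and 109 CPM in stage I, 55.1, 74.9 and 84.8 in stage II, 68.2, 54.3 and 67.4 in stage III, and 84.1, 68.3 and 104 in stage IV under IL-33. In steady state the first and second libraries held 44.5 to 75.1 CPM of Ddit3 over the 4 stages, and the third held 341, 236, 379 and 351 CPM in stages I to IV. Averaged over stages, the Ddit3 difference between conditions was −0.90 (adjusted p = 0.06) with the third steady state libraries and 0.34 (adjusted p = 0.082) without them.

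In stage I of both conditions the sensors themselves were the least abundant genes of the list per kilobase of exon. Under IL-33, CPM per kilobase of exon was 2.15 ± 0.97 for Ern1, 4.53 ± 0.47 for Eif2ak3 and 5.74 ± 1.71 for Atf6, against 1378 ± 133 for Calr, the highest (SD, n = 3). In stage I of steady state Ern1 stood at 3.47 ± 0.74 and Hspa5 was highest at 1055 ± 440.8 CPM per kilobase. Ern1 had 18, 9.51 and 25.3 CPM in stage I, 9.7, 16.4 and 19.1 in stage II, 12.6, 6.84 and 16 in stage III, and 0.386, 4.83 and 5.27 in stage IV under IL-33. The steady state libraries held 22.1, 34.3 and 28.8 CPM in stage I, 4.74, 6.41 and 12.7 in stage II, 11.2, 4 and 2.65 in stage III, and 1.74, 8.5 and 3.57 in stage IV. Every stage IV library lay below every stage I library of its condition. From stage I to IV, a comparison added after the data were seen, Ern1 fell by 2.33 on the log2 scale under IL-33 (SE 0.73, adjusted p = 0.012) and by 2.62 in steady state (SE 0.73, adjusted p = 0.0058), where 22.9% and 22.7% of all genes fell. Without the third IL-33 library of stage I the first of these had an adjusted p of 0.052.

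Luminal chaperones and cofactors fell at the steep step of each condition, 7 of 9 into stage IV under IL-33 (median log2 fold change −1.67) and 6 of 9 into stage III in steady state (−1.13). Of all genes, 16% and 17.4% fell at these steps. Hspa5 encodes BiP, the main luminal Hsp70 chaperone and the protein that holds the sensors inactive. Under IL-33 Hspa5 (chr2:34771970-34777547) had 3624, 3554 and 4209 CPM in stage I, 3124, 4565 and 3369 in stage II, 2000, 3274 and 2523 in stage III, and 587, 539 and 491 in stage IV. In steady state the levels were 3574, 3207 and 6604 CPM in stage I, 4348, 1952 and 5262 in stage II, 1240, 682 and 4864 in stage III, and 967, 860 and 3175 in stage IV. The third steady state library was highest at each stage, and from stage III on it stood several times above the other two. The IL-33 step into stage IV was −2.27 (SE 0.55, adjusted p = 0.0032). The steady state step into stage III was −0.77 (adjusted p = 0.27) with all libraries and −1.79 (SE 0.32, adjusted p = 0.00026) without the third steady state libraries. In stage III, Hspa5 differed between IL-33 and steady state by 0.20 (adjusted p = 0.8), and by 1.43 without those libraries (SE 0.30, adjusted p = 0.001). In stage IV all 3 IL-33 libraries of Hspa5 lay below all 3 of steady state, with a difference of −1.63 that was not called (SE 0.54, adjusted p = 0.0501), and of −0.80 without the third steady state libraries (adjusted p = 0.07).

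Sdf2l1 and Creld2, ER proteins strongly induced by ER stress, also fell at both steep steps. Opposite to Hspa5, the third steady state library was the lowest of its group for Creld2 at each stage. For Sdf2l1 it was the lowest in stages I and II. Sdf2l1 (chr16:17130138-17132383), a partner of ER-resident J proteins, had 738, 1280 and 930 CPM in stage I, 670, 876 and 716 in stage II, 523, 712 and 532 in stage III, and 122, 160 and 137 in stage IV under IL-33. Its steady state levels were 726, 422 and 386 CPM, then 506, 379 and 172, then 94.6, 53.5 and 88.1, then 106, 70.8 and 76.8 CPM. All 3 stage IV libraries under IL-33 lay below those of stage III, and in steady state all of stage III lay below all of stage II. Those steps were −2.08 (SE 0.33, adjusted p = 5.8e-05) and −2.16 (SE 0.33, adjusted p = 3.5e-05). Creld2, a folding factor rich in cysteines, had 488, 969 and 658 CPM in stage I, 409, 657 and 442.1 in stage II, 300, 506 and 319 in stage III, and 54.6, 65.4 and 50.3 in stage IV under IL-33. In steady state Creld2 had 427, 232 and 140 CPM, then 344, 137 and 68.4, then 68.7, 44.5 and 36.6, then 45.2, 38.7 and 35.2 CPM. Its steps were −2.72 into stage IV under IL-33 (SE 0.46, adjusted p = 0.0001) and −1.88 into stage III in steady state (SE 0.45, adjusted p = 0.0024). The steady state groups overlapped, and without the first library of stage II that adjusted p was 0.051.

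Other chaperones spread widely around these. Hyou1, a large Hsp70-like chaperone, had the deepest fall of the group. It had 0.29, 10 and 4.91 CPM in stage IV against 70, 159 and 101 in stage III under IL-33 (log2 fold change −4.43, SE 0.86, adjusted p = 0.00041), and 19.4, 0.8 and 14.8 CPM in stage III against 122, 67.9 and 49.6 in stage II of steady state (−2.77, SE 0.79, adjusted p = 0.0093). Hsp90b1, the ER form of Hsp90, fell at 3 steps, into stage IV under IL-33 (−1.36) and into stages III (−0.54) and IV (−1.15) in steady state. At the last of these it had 429, 363 and 500 CPM in stage IV and 999.7, 680 and 1185 in stage III, and an adjusted p of 0.00051. Of the group, only Dnajb9 was called lower under IL-33. Dnajb9 (chr12:44205559-44210326) encodes ERdj4, a J protein that helps BiP hold IRE1 inactive. Its 12 IL-33 libraries lay between 43.9 and 66.5 CPM. The steady state libraries held 79.3, 109 and 204 CPM in stage I, 116, 89.4 and 229 in stage II, 141, 93.9 and 377 in stage III, and 129, 124 and 351 in stage IV. Every IL-33 library lay below every steady state library. The log2 fold change was −2.08 in stage III (SE 0.46, adjusted p = 0.0013), −1.84 in stage IV (SE 0.46, adjusted p = 0.0097) and −1.60 over all stages (SE 0.23, adjusted p = 8.6e-06). Without the third steady state libraries it was −1.04 over all stages (adjusted p = 7.2e-07), and −1.28 and −1.21 in stages III and IV (adjusted p = 0.00017 and 0.001). With only the third library of steady state stage IV left out, the stage IV difference was −1.17 (adjusted p = 0.11).

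**Figure D4:**
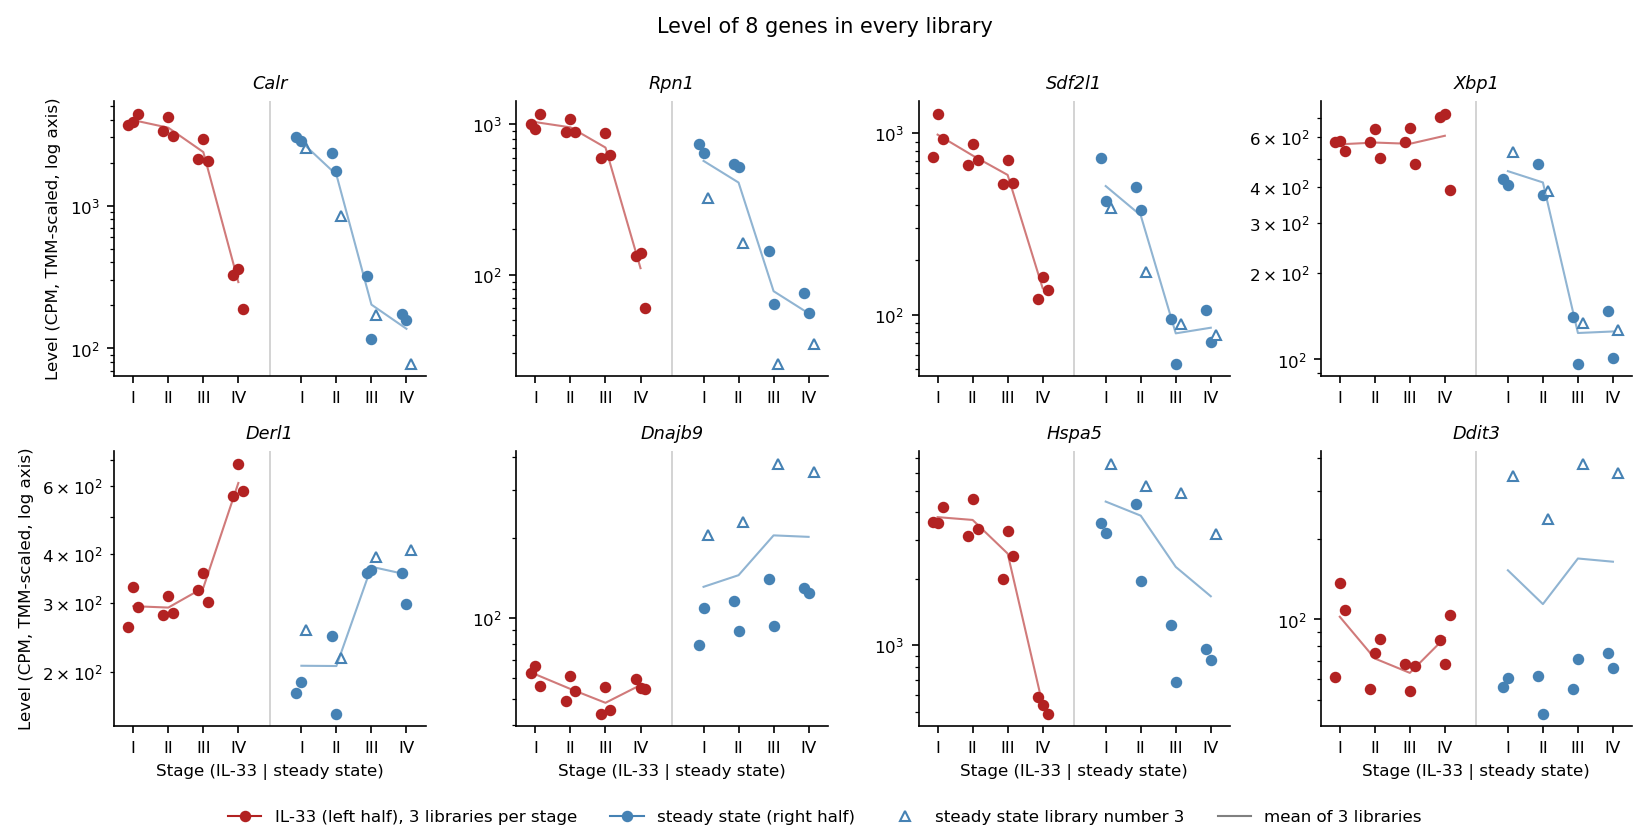
Level of 8 ER genes in every library (TMM-scaled CPM, log axis) across stages I to IV, IL-33 at the left of each panel and steady state at the right, with lines through the means of 3 libraries and the third steady state libraries as open triangles. Xbp1 stays between 390 and 722 CPM in all IL-33 libraries and is at most 148 CPM in stages III and IV of steady state, while Ddit3 is at least 236 CPM only in the third steady state libraries.

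All 6 lectin chaperones and disulfide isomerases fell at both steep steps, where 16% and 17.4% of all genes fell. Their median log2 fold change was −2.15 into stage IV under IL-33 and −1.71 into stage III in steady state. Calr (chr8:84841850-84846934) encodes calreticulin, a calcium-binding lectin that retains glycoproteins until they are folded. Under IL-33 it had 3655, 3853 and 4395 CPM in stage I, 3308, 4162 and 3067 in stage II, 2117, 2936 and 2063 in stage III, and 328, 358 and 188 in stage IV. In steady state it had 3003, 2830 and 2548 CPM in stage I, 2344, 1748 and 849 in stage II, 322, 116 and 171 in stage III, and 176, 158 and 78.2 in stage IV. The groups on either side of each steep step were far apart. Both steps were −3.02 (SE 0.38, adjusted p = 3.7e-06 each). In stage III Calr was higher under IL-33 by 3.55 (SE 0.39, adjusted p = 8.1e-07). The difference between conditions in the step from stage II to III was 2.46 (SE 0.51, adjusted p = 0.0048), and in the step from III to IV −2.46 (SE 0.51, adjusted p = 0.0015). These differences of steps share the stage III libraries.

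The membrane-bound relative of calreticulin, Canx, and the isomerases Pdia3, Pdia4, Pdia6 and P4hb ran alongside. At the IL-33 step into stage IV their fold changes lay between −2.50 for Pdia6 and −1.23 for P4hb, and at the steady state step into stage III between −2.21 for Pdia6 and −1.44 for Canx. P4hb, which also serves collagen hydroxylation, kept the highest stage IV level, with 1010, 1269 and 662 CPM under IL-33 and 371, 292 and 174 CPM in steady state, a difference of 1.81 (SE 0.32, adjusted p = 0.00055). Pdia4 had 1035, 1243 and 926 CPM in stage II under IL-33 and 583, 362 and 183 CPM in stage II of steady state. That difference was 1.51 (SE 0.40, adjusted p = 0.02), and its adjusted p was 0.057 without the second steady state library, 0.095 without the third steady state library and 0.085 without the second IL-33 library.

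Of the 6 genes of ER-associated degradation, 2 fell and 1 rose into stage IV under IL-33, against 16% and 13.1% of all genes, and 1 fell and 1 rose into stage III in steady state, against 17.4% and 17.2%. Derl1 encodes derlin-1, a channel-like protein through which chains leave the ER, and it was the only gene of the 44 called higher at either steep step. Derl1 (chr15:57869502-57892448) had 261, 329 and 293 CPM in stage I, 280, 313 and 283 in stage II, 324, 359 and 301 in stage III, and 566, 683 and 581 in stage IV under IL-33. Its steady state levels were 176, 189 and 256 CPM in stage I, 247, 156 and 217 in stage II, 357, 364 and 394 in stage III, and 357, 298 and 409 in stage IV. It rose into stage IV under IL-33 by 0.89 (SE 0.20, adjusted p = 0.0013) and into stage III in steady state by 0.85 (SE 0.20, adjusted p = 0.0019), without overlap in either. In a fit of the compared groups alone, the steady state rise had an adjusted p of 0.069. Edem1, which extracts misfolded glycoproteins from the folding cycle, fell at the same steps, with 262, 238 and 214 CPM against 438.3, 593 and 564 (−1.16, adjusted p = 0.00029) and 193, 107 and 211 CPM against 479, 349 and 409 (−1.28, adjusted p = 0.00011).

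Herpud1, a membrane protein of the degradation complex whose promoter held the ERSE-II above, stayed in one range under IL-33, with 480, 506 and 557 CPM in stage I, 469, 538 and 455.01 in stage II, 435, 467 and 405 in stage III, and 561, 477 and 392 in stage IV. Steady state libraries held 553, 358 and 1019 CPM in stage I, 479, 264 and 878 in stage II, 336, 300 and 939 in stage III, and 266, 209 and 292 in stage IV. The third library was above the others by the widest margin in stages I to III. None of the steps between neighbouring stages was called for Herpud1. From stage I to IV in steady state it fell by 1.33 (SE 0.40, adjusted p = 0.01), but with an adjusted p of 0.10 without the third library of stage I and 0.053 without the second of stage IV. Without the third steady state libraries it was higher under IL-33 in stage IV by 0.96 (adjusted p = 0.012), against 0.90 (adjusted p = 0.15) with them.

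Of the 7 translocon genes, 4 fell at each steep step, Sec61a1, Ssr1, Ssr2 and Ssr3, where 16% (IL-33) and 17.4% (steady state) of all genes fell. Sec61a1 (chr6:88503579-88518905) encodes the pore of the channel. It had 728, 504 and 783 CPM in stage I, 648, 855 and 702 in stage II, 468, 751 and 567 in stage III, and 177, 191 and 124 in stage IV under IL-33. The steady state libraries held 427, 315 and 396 CPM, then 381, 270 and 218, then 137, 128 and 99.3, then 108, 114 and 82.6 CPM. At every stage the IL-33 libraries lay above the steady state libraries. The difference was 1.34 in stage II (SE 0.25, adjusted p = 0.0018), 2.30 in stage III (SE 0.26, adjusted p = 8.9e-07), and 0.82 and 0.70 in stages I and IV (adjusted p = 0.058 and 0.068). Sec61b and Sec61g, the small subunits of the same channel, were called in none of the steps between neighbouring stages.

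Sec61b had 285, 641 and 405 CPM in stage I, 242, 296 and 285 in stage II, 240, 287 and 215 in stage III, and 207, 240 and 251 in stage IV under IL-33. Steady state libraries held 311, 237 and 196 CPM, then 239, 175 and 107, then 174, 184 and 186, then 240, 227 and 325 CPM. So from stage III to IV under IL-33 the pore gene fell by 1.86 (adjusted p = 8.9e-06) and Sec61b differed by −0.09 (adjusted p = 0.84), and from stage II to III in steady state by −1.26 (adjusted p = 0.00049) and 0.06 (adjusted p = 0.89). Whether the 2 genes differ in their steps was not tested. From stage I to IV, compared after the data were seen, Sec61b fell by 0.93 under IL-33 (adjusted p = 0.0084). Without the second IL-33 library of stage I that adjusted p was 0.098. In steady state the change was 0.09 (adjusted p = 0.82). Over the mean of stages Sec61b was higher under IL-33 by 0.44 (adjusted p = 0.014). Ssr2, of the translocon-associated complex, was the single gene called in stage I, with 595, 1203 and 794 CPM under IL-33 and 454.9, 354 and 328 in steady state (1.19, SE 0.29, adjusted p = 0.025). That call was lost without the second IL-33 (0.88, adjusted p = 0.20), the second steady state (1.15, adjusted p = 0.10) or the third steady state library (1.10, adjusted p = 0.11). Ssr3, of the same complex, fell to 103, 95.3 and 108 CPM in stage III of steady state, against 374, 264 and 237 in stage II (−1.52, SE 0.24, adjusted p = 4e-05).

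The second IL-33 library of stage I stood apart by transcript length, and this touches the short genes above. Relative to the mean of the other 2 libraries of its group it was higher by a median of 0.62 on the log2 scale over the 15 shortest genes of the list (longest transcript up to 2455 bases) and by 0.38 over all short genes, and lower by 0.38 and 0.41 over long ones. At the IL-33 step from stage I to II the log2 fold changes of the 44 genes rose with length, with a Spearman correlation of 0.58, against 0.30 over 12625 genes, as a description over genes that share these libraries. The steep steps ran through all lengths. The short, middle and long genes of the list had medians of −0.72, −1.30 and −1.16 into stage IV under IL-33, and of −1.32, −0.63 and −0.77 into stage III in steady state.

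In the signal peptidase, 2 of 5 genes fell into stage IV under IL-33 and 1 of 5 into stage III in steady state, where 16% and 17.4% of all genes fell, and the catalytic subunits were not among them. Sec11c, a catalytic subunit, had 542, 995 and 689 CPM in stage I, 560, 657 and 613 in stage II, 612, 685 and 581 in stage III, and 562, 670 and 675 in stage IV under IL-33. In steady state it had 448.2, 441.7 and 400.1 CPM, then 483, 373 and 403, then 518, 494 and 884, then 491, 412 and 698 CPM. Its steep-step fold changes were 0.02 under IL-33 (adjusted p = 0.96) and 0.59 in steady state (adjusted p = 0.061). Over the mean of stages Sec11c was higher under IL-33 by 0.39 (adjusted p = 0.013). Spcs2, an accessory subunit, had 951, 1385 and 1048 CPM in stage I, 994, 1144 and 912 in stage II, 842, 1019 and 774 in stage III, and 399, 504 and 425 in stage IV under IL-33. In steady state Spcs2 had 774, 669 and 530 CPM, then 717, 534 and 412, then 352, 223 and 489, then 311, 266 and 207 CPM. It fell into stage IV under IL-33 by 0.99 (SE 0.26, adjusted p = 0.0058), while the steady state step into stage III, with overlapping libraries, was −0.64 (adjusted p = 0.056) and −1.20 without the third libraries (adjusted p = 0.001).

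Spcs3, which holds the complex together, fell at 3 steps. It had 253, 338 and 249 CPM in stage IV against 667, 840 and 699 in stage III under IL-33 (−1.39, SE 0.25, adjusted p = 0.00016), and 262, 158 and 339 CPM in stage III against 565, 441.6 and 476 in stage II of steady state (−0.97, SE 0.24, adjusted p = 0.0037). In stage IV of steady state it had 115, 97.1 and 87.8 CPM, a further fall of 1.34 (SE 0.25, adjusted p = 0.0012), which was 0.89 in size with an adjusted p of 0.056 without the third libraries. In stage IV Spcs3 was higher under IL-33 than in steady state by 1.48 (SE 0.25, adjusted p = 0.00026), without overlap.

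The oligosaccharyltransferase genes Rpn1, Rpn2, Ddost and Stt3a fell into stage IV under IL-33, and Rpn1, Rpn2 and Ddost into stage III in steady state. Over all genes, 16% and 17.4% fell at these steps. Rpn1 (chr6:88084482-88105304), a subunit that receives chains from the translocon, had 1002, 924 and 1174 CPM in stage I, 883, 1086 and 892 in stage II, 595, 878 and 627 in stage III, and 132, 139 and 59.7 in stage IV under IL-33. Its steady state levels were 742, 646 and 324 CPM in stage I, 546, 520 and 162 in stage II, 143, 64.2 and 25.6 in stage III, and 76, 55.3 and 34.6 in stage IV. The third library was the lowest of its steady state group at each stage, opposite to Hspa5. The steep steps of Rpn1 were −2.66 (SE 0.50, adjusted p = 0.00031) and −2.40 (SE 0.50, adjusted p = 0.00075), and in stage III it was higher under IL-33 by 3.17 (SE 0.51, adjusted p = 6.3e-05).

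Dad1, a small subunit needed for a stable complex, had 284, 590 and 385 CPM in stage I, 250, 292 and 270 in stage II, 263, 291 and 241 in stage III, and 167, 208 and 217 in stage IV under IL-33. Steady state libraries held 318, 246 and 218 CPM, then 228, 208 and 128, then 166, 149 and 162, then 186, 214 and 238 CPM. Its steep-step fold changes were −0.43 (adjusted p = 0.19) and −0.24 (adjusted p = 0.46), so Dad1 was called in neither. From stage I to IV, compared after the data were seen, it fell by 1.09 under IL-33 (adjusted p = 0.00079). In steady state that change was −0.29 (adjusted p = 0.34). Over the mean of stages Dad1 was higher under IL-33 by 0.46 (adjusted p = 0.0042). In stage III it was higher under IL-33 by 0.74 (SE 0.24, adjusted p = 0.021), with an adjusted p of 0.067 or 0.079 without the second steady state or the second IL-33 library. Stt3a, a catalytic subunit, differed by 0.99 in stage II (SE 0.30, adjusted p = 0.042), and this call was lost without any 1 of the 6 libraries compared (adjusted p = 0.065 to 0.15).

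The difference between conditions in each step was tested directly. For the step from stage I to II, 0 of the 44 genes were called, as were 0% of all genes, with 0 of the 44 at an unadjusted p below 0.05 and 0 by DESeq2 or limma-voom. For the step from stage II to III, 8 genes had the higher fold change under IL-33 and 0 the lower (4.49% and 2.12% of all genes, 6.61% in all), among them Xbp1, Calr, Sdf2l1 at 1.81 (SE 0.46, adjusted p = 0.018) and Rpn2 at 1.46 (SE 0.38, adjusted p = 0.021). The calls of Sdf2l1 and Rpn2 were each lost without any 1 of 5 libraries, the first of steady state stage II, the second of steady state stage III, the first or the third of IL-33 stage II and the second of IL-33 stage III (adjusted p up to 0.062 and 0.073). For the step from III to IV, 12 genes had the lower fold change under IL-33 (10.3% of all genes) and Derl1 the higher (8.44%), at 0.96 (SE 0.28, adjusted p = 0.017). Among the 12 were Pdia6 at −2.60 (SE 0.43, adjusted p = 0.0002), Sec61a1 at −1.60 (SE 0.35, adjusted p = 0.0023), Rpn1 at −2.18 (SE 0.68, adjusted p = 0.027) and Hyou1 at −3.41 (SE 1.11, adjusted p = 0.035). The Rpn1 call was lost without any 1 of 5 libraries, the second or the third of steady state stage III, the first of steady state stage IV, the second of IL-33 stage III and the third of IL-33 stage IV (adjusted p up to 0.074). The Hyou1 call was lost with limma-voom, with the compared groups alone, and without any 1 of 6 libraries, the second of steady state stage III, the first of steady state stage IV, the second or the third of IL-33 stage III and the first or the third of IL-33 stage IV (adjusted p up to 0.15). Without the third steady state libraries these counts were 21 for the step into stage III and 19 lower and 1 higher for the step into stage IV. In that fit 12.9% and 21.1% of all genes were called in either direction, against 6.61% and 18.7% with all libraries.

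From stage I to IV, compared after the data were seen, the counts were 31 genes lower and 1 higher under IL-33 and 30 lower and 1 higher in steady state, where 22.9% and 22.7% of all genes were lower and 21.2% and 21.1% higher. The single gene that rose was Derl1 in both, by 1.05 and 0.78. Calr changed by −3.77 under IL-33 (adjusted p = 9.7e-08) and −4.34 in steady state (adjusted p = 2.3e-08). Hspa5 changed by −2.82 under IL-33 (adjusted p = 0.00028) and −1.42 in steady state (adjusted p = 0.035), where the call was lost without the first or the second library of stage IV or the third of stage I (adjusted p = 0.14 to 0.16). Of the 44 genes, 8 were called in none of the comparisons of neighbouring stages, conditions or steps: Atf6, Atf4, Ddit3, Ern1, Eif2ak3, Herpud1, Derl2 and Spcs1.

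Genes with an ERSE in the promoter can be set beside those without. Into stage IV under IL-33, 7 of the 8 with an ERSE fell (median log2 fold change −2.15), and 14 of the 28 with a promoter but no ERSE (−0.97). Into stage III in steady state the falls were 6 of 8 (−1.28) and 11 of 28 (−0.61). In stage III, 6 of 8 (1.76) and 17 of 28 (1.20) were higher under IL-33. Over all genes tested, 16% and 17.4% fell at those steps and 18.5% were higher under IL-33 in stage III. No test of this division was made, since the list was chosen with results known.

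Related lists outside the 44 genes were counted at the steep steps, where 16% of all genes fell and 13.1% rose into stage IV under IL-33, and 17.4% fell and 17.2% rose into stage III in steady state. Of 18 other ER folding enzymes, 13 fell and 0 rose into stage IV under IL-33 (median −1.29), 12 fell and 0 rose into stage III in steady state (−1.05), and 14 were higher in stage III under IL-33 (1.54). Of 18 other genes of targeting and translocation, 10 fell into stage IV under IL-33 and 6 into stage III in steady state, with 1 rise in each. Stt3b, the second catalytic subunit of the oligosaccharyltransferase, averaged 68.9 CPM in stage IV against 316 CPM in stage III under IL-33 (−2.20, adjusted p = 1.7e-06), and 94.0 CPM in stage III against 333 CPM in stage II of steady state (−1.83, adjusted p = 1.4e-05). Of 19 ER-to-Golgi transport genes, 8 and 5 fell at these steps, among them Lman1, a cargo receptor for glycoproteins (−2.12 and −1.81, adjusted p = 3.5e-05 and 0.00016). Other ER-associated degradation genes, 17 in number, had 6 and 3 falls and 0 and 2 rises, so the steady state falls were near the share over all genes.

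Lists tied to ATF4 and to the cytosol were counted at the same steps, against the same shares of all genes. Of 20 ATF4 targets, 7 fell and 2 rose into stage IV under IL-33, 8 fell and 5 rose into stage III in steady state, and 14 were higher and 2 lower under IL-33 on average over stages, where 21.4% and 16.7% of all genes were. Psat1, an enzyme of serine synthesis, averaged 13.2 CPM in stage IV against 180 CPM in stage III under IL-33 (−3.77, adjusted p = 3.6e-06), and 8.25 CPM in stage III against 87.9 CPM in stage II of steady state (−3.42, adjusted p = 1.1e-05). Of 11 other regulators of the unfolded protein response, 1 fell and 1 rose into stage IV under IL-33, and 1 fell and 2 rose into stage III in steady state. The one that rose in both was Creb3, a membrane-bound transcription factor, by 0.95 and 1.33 (adjusted p = 0.00083 and 2.5e-05). Of 21 cytosolic and mitochondrial chaperones, 14 and 9 fell and 0 rose, among them Tcp1, a subunit of the cytosolic chaperonin (−1.78 and −1.56, adjusted p = 3.8e-06 and 1.6e-05).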

How the data were processed

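RNA was sequenced from 24 libraries of sorted bone marrow cells, with SMART-Seq v4 cDNA and Nextera XT libraries, according to the labels. These kits do not mark strand. The deposited values are raw read counts per gene symbol. Per the submitters' processing notes they involved STAR 2.6.1a, the mm10 build and DESeq2. How reads were counted, with which strand setting and annotation, is not given in the sources used here, so reads of overlapping genes cannot be told apart (15.7% of the exon bases of Hsp90b1, 16.3% of Spcs1, 12.8% of Ssr2). Rows for reads in no feature (9.19% to 30.5%) and ambiguous reads (1.73% to 2.6%) were left out of totals and tests.

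The 44 genes, the related lists and the markers were chosen with earlier results of these data known. Genes given with full statistics beside the panel of 13 had the largest absolute log2 fold change of their role group and direction in a comparison. They were taken from called genes whose libraries did not overlap between the groups compared. Overlap was not assessed for differences of steps or for the mean of stages. Genes of the related lists were ranked by adjusted p instead. With edgeR 4.0.16 (R 4.3.3), genes passing filterByExpr (12743) were TMM-normalised and 1 quasi-likelihood model was fitted to the 8 groups, with Benjamini-Hochberg adjustment over all genes at 0.05. p-values measure the spread between libraries of pooled mice, all taken as independent. Alternatives were DESeq2 1.42.0, limma-voom (limma 3.58.1) with sample weights, RLE size factors, library totals, no filter, the compared groups alone, a replicate block, omission of the third steady state libraries and of each library in turn. Comparisons of stage IV with I were added after the data were seen. Tests ran on simulated data first. Replicates of a group differed beyond sampling noise (chi-square per degree of freedom 20.0 to 123).

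Replicate numbers come from the labels. Deviations of libraries with the same number correlated above 0.1 in every pair for stage II against I (0.154 to 0.238) and III against II (0.131 to 0.243) under IL-33, and for stage II against I (0.117 to 0.298), IV against III (0.112 to 0.216) and IV against I (0.120 to 0.185) in steady state, and not in the other comparisons, for instance IV against III under IL-33 (lowest 0.0462) or III against II in steady state (lowest 0.0577). Even so, in each step between neighbouring stages, these included, all 6 libraries correlated most with the same-numbered library of the other stage. The main fit did not treat such libraries as pairs. The replicate block did so within each condition, for comparisons of stages and for differences of steps. For IL-33 against steady state it joined the same number across both conditions. Those deviations correlated at −0.0915 to 0.0101 in stage I and at −0.0761 to −0.0003 in stage III. There the block cannot check for pools shared within a condition. Positions are from GENCODE M21 on GRCm38, which held 24490 of the 24982 symbols. Promoters are RefSeq windows on GRCm38.p6, matched by symbol for 36 of the 44 genes. Levels per kilobase used the exon union.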

Additional observations from a re-analysis of the deposited data

Results flagged for a closer look

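The tests of the difference between IL-33 and steady state in one step of maturation singled out 21 results in 15 genes (edgeR, adjusted p below 0.05). For the step from stage II to III, IL-33 minus steady state on the log2 scale, the difference was 2.46 for Calr, 1.82 for Pdia6, 1.81 for Sdf2l1, 1.73 for Xbp1, 1.46 for Rpn2, 1.37 for Pdia3, 1.11 for Canx and 1.11 for Edem1. For the step from stage III to IV it was −3.41 for Hyou1, −2.60 for Pdia6, −2.46 for Calr, −2.40 for Creld2, −2.18 for Sdf2l1, −2.18 for Rpn1, −1.60 for Sec61a1, −1.51 for Rpn2, −1.50 for Canx, −1.45 for Ssr3, −1.40 for Dnajc3, −1.13 for Edem1 and 0.96 for Derl1. Calr, Canx, Edem1, Pdia6, Rpn2 and Sdf2l1 appear in both, with opposite signs, and both differences use the stage III libraries. Xbp1 appears only in the first, with group means of 567 CPM in stage III against 573 CPM in stage II under IL-33, and of 124 CPM in stage III against 416 CPM in stage II in steady state. Derl1 is the one with a positive difference in the second, and its adjusted p was 0.052 without the second IL-33 library of stage IV, 0.084 without the second steady state library of stage IV and 0.097 with library totals. Under the 20 alternatives run for each difference, that of Edem1 for the II to III step lost its call in 8 (adjusted p up to 0.089), those of Rpn2 and Sdf2l1 for the same step in 5 each (up to 0.073 and 0.062), that of Hyou1 for the III to IV step in 8 (up to 0.15), and that of Rpn1 for the III to IV step in 5 (up to 0.074). The other 15 beside Derl1 kept their calls in all 20.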

How the results depend on the processing

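Each of the 231 calls on the 44 genes was refitted under the alternatives run, 3955 refits in all, and 0 turned its direction. Of the 44 genes, limma-voom called 6 from stage I to II and 4 from II to III under IL-33, against 0 and 0 with edgeR, 3 from stage III to IV in steady state (edgeR 6), and 32 and 20 for IL-33 against steady state in stages I and IV (edgeR 1 and 12). DESeq2 called 10 in stage I and 13 for the difference of the II to III step (edgeR 1 and 8). The replicate block called 1 from stage I to II and 10 from III to IV in steady state, 5 in stage I and 16 for the difference of the II to III step. It moved no other count of the 44 genes by over 1.5 times and ended none of the 106 named calls. For calls of IL-33 against steady state this is no check of pairing, since the block joined libraries of different conditions by number. Without the low-count filter 2 were called in stage I, and with RLE factors 9 in stage II (main 15). With the compared groups alone, 0 were called from stage III to IV in steady state, 0 in stage I and 8 in stage II. Without the third steady state libraries the counts were 1 from stage III to IV in steady state, 7 in stage II, 21 for the difference of the II to III step and 20 for that of the III to IV step (main 13). Of all genes, 6.47%, 8.1%, 12.9% and 21.1% were called in that fit, in the same order.

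Leaving out 1 library gave 2 to 8 from stage III to IV in steady state, 0 to 11 in stage I, 4 to 18 in stage II and 5 to 15 for the difference of the II to III step. The ranges were 25 to 26 from III to IV under IL-33, 19 to 26 from II to III in steady state and 27 to 30 in stage III. The low of 2 came without the second or the third steady state library of stage IV, and the count was 3 without the third of stage III. The high of 15 came without the third steady state library of stage II.

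With library totals in place of TMM, the median of all genes was −0.33 from stage II to III in steady state and −0.21 from III to IV under IL-33, and 0.27 for IL-33 against steady state in stage III, where those of the 44 genes were −1.14, −1.39 and 1.63. All genes called higher and lower were then 1099 and 2597 from III to IV under IL-33 (TMM 1669 and 2041), 1349 and 3057 from II to III in steady state (TMM 2188 and 2217), and 3049 and 1220 in stage III (TMM 2357 and 1899). The splits were 150 and 224 in stage I (TMM 345 and 173), 748 and 749 in stage IV (TMM 953 and 597), 292 and 227 from I to II (TMM 3.58% and 1.29% of all genes) and 652 and 491 from III to IV in steady state (TMM 3.55% and 5.67%). For the differences of steps they were 892 and 115 (TMM 572 and 270), then 539 and 1904 (TMM 1075 and 1313), and from stage I to IV 2095 and 3584 under IL-33 (TMM 2697 and 2919) and 1945 and 3707 in steady state (TMM 2692 and 2895). Totals called 15 and 21 of the 44 for the differences of the II to III and III to IV steps, and gave summed levels of 9848 CPM in IL-33 stage IV (TMM 11350) and 31547 CPM in steady state stage I (TMM 26507). Where counts changed, the cause was not tested.

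Ern1 and Hyou1 had few counts in stage IV, which limits their precision, and 3 pools per group limit every test.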

Other observations

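Per kilobase of exon, the most abundant of the 44 genes changed along the path. In stage I Calr (1378 CPM per kilobase), P4hb (1006) and Hspa5 (898) led under IL-33, and Hspa5 (1055), Calr (969.9) and P4hb (775) in steady state. In stage IV P4hb (343), Herpud1 (204), Hsp90b1 (202) and Xbp1 (186) led under IL-33. In stage IV of steady state Hspa5 (394), Atf4 (290.02) and Sec61b (208) led, and stood at 216, 156 and 184 without the third library. Another length can change these orders. The exon union of Sec61b is 1271 bases and its longest transcript 723, while both are 2861 bases for P4hb.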
